A study of Mus musculus with 12 samples.

Results

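The genes of fatty acid and sterol synthesis were examined in the gastrocnemius, the large calf muscle, of mice with and without a tumour. The set holds 37 genes taken by symbol, and earlier results of these data were known when they were chosen. All 37 were found once each among the 54532 genes of the deposited table, and 36 had a mean of at least 0.5 FPKM (fragments per kilobase of transcript, scaled to library depth) over the 12 libraries and were tested. Fdps, which encodes farnesyl diphosphate synthase, fell below that limit at 1 to 11 reads per library, and 11.7% of its 50-base stretches also occur in the overlapping gene Gm43738, so its level is uncertain. The mice were female ICR SCID, an immunodeficient strain that usually lacks mature T and B cells, and each group had 4 biological replicates. The NTV group was tumour-free and was given vehicle. In the TV group, HT1080 cells, from an established line of human fibrosarcoma, had formed tumours under the skin, and vehicle was given. The TL group bore HT1080 tumours too and was dosed by oral gavage with 30 mg/kg of selpercatinib, which blocks the RET kinase, once daily over 19 days. The series asks how selpercatinib acts on cancer cachexia, the wasting of muscle and fat that can accompany a tumour. The 12 libraries hold no tumour-free group given selpercatinib, and the age of the mice is not given in the sources used here.

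Fatty acids are built in the cytosol from acetyl-CoA: ATP citrate lyase supplies it, acetyl-CoA carboxylase makes malonyl-CoA and fatty acid synthase makes palmitate, which elongases and desaturases then extend and unsaturate. Sterols start from the same acetyl-CoA through the mevalonate pathway and squalene. Both arms are under the SREBP transcription factors, which the escort protein SCAP carries from the endoplasmic reticulum to the Golgi for cleavage when sterols are low and which the INSIG proteins hold back. SREBP-1c, from Srebf1, mainly drives fatty acid genes, SREBP-2, from Srebf2, mainly sterol genes, and ChREBP, from Mlxipl, answers to carbohydrate. Adipose tissue and liver are known for high rates of this synthesis, and muscle fibres for low ones, so fat cells between the fibres can contribute to these transcripts in a muscle sample.

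Promoter windows of 300 bases, from 250 before to 50 after an annotated start, were available from RefSeq (GRCm38.p6) for 29 of the 37 members. They were searched on both strands for the core of the sterol regulatory element, TCACNCCAC, for the E-box core CACGTG, and for the NF-Y box CCAAT, which reads ATTGG on the other strand. The sterol element core stood in 1.242% of all 32851 windows and in 2 members, Hmgcs1 and Mlxipl. The E-box core stood in 7.15% of windows and in 7 members, and the NF-Y box in 37.41% of windows and in 24 members. A member can have more than 1 window, so the counts of members are not shares on the same base. The windows below are printed because they hold the sterol element core (Hmgcs1 and Mlxipl) or belong to a gene whose level differed between TV and NTV (Hmgcs1, Hsd17b7 and Scap). The fourth such gene, Fdft1, had no entry. Motif matches are in capitals, and each sequence runs 5′ to 3′ on the gene's own strand.
Hmgcs1, chr13:119690101-119690400, plus strand: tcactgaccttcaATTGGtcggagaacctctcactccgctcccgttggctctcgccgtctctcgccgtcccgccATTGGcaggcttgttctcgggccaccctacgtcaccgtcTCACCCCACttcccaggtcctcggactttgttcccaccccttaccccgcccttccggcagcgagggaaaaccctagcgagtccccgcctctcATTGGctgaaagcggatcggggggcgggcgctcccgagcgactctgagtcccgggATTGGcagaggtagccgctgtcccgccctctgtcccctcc
Mlxipl, chr5:135106641-135106940, plus strand: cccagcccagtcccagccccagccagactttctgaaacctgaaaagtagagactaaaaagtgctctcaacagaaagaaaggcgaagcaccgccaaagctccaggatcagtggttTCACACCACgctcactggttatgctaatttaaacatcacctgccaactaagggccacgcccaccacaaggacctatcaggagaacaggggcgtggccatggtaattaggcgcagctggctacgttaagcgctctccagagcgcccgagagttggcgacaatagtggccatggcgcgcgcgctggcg
Hsd17b7, chr1:169969156-169969455, minus strand: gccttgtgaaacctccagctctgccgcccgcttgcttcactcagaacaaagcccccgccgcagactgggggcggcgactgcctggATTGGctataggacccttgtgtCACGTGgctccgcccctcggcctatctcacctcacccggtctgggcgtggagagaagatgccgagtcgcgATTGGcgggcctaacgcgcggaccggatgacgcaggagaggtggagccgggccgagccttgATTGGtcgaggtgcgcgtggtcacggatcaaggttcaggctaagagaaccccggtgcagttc
Scap, chr9:110333038-110333337, plus strand: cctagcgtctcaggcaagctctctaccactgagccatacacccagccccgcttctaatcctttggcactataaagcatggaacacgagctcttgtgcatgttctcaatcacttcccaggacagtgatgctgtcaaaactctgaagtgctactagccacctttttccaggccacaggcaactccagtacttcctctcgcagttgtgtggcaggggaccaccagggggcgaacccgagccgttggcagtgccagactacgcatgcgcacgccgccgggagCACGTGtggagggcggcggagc
In Hmgcs1 the sterol element core starts 137 bases before the annotated start, with NF-Y boxes at -237, -176, -45 and 10. In this window of Mlxipl it starts at -136, and the gene's other window holds an E-box core at -98. Hsd17b7 has an E-box core at -143 and NF-Y boxes at -165, -73 and -12. Scap has 1 E-box core, 28 bases after this start and at -40 in its other, overlapping window. Such a match describes letters in a window and is no evidence that a factor binds there.

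Between 14939830 and 23580603 reads per library were assigned to genes. The libraries held the transcripts of fast skeletal muscle at high levels (Ckm 3745 to 9227 FPKM over the 12 libraries). Of 19 adipocyte markers, 18 were found, and their summed level was 677 to 1192 FPKM in NTV, 982 to 1955 in TV and 1101 to 2392 in TL. Much of that sum was Car3, which muscle also expresses. Adipoq, the adipocyte hormone adiponectin, stood at 3.37, 3.93, 16.7 and 6.64 FPKM in NTV libraries 2, 3, 5 and 6, at 14.2, 33.6, 11.2 and 20.5 in TV libraries 3, 4, 6 and 8, and at 51.2, 13.1, 66.04 and 7.302 in TL libraries 1, 4, 5 and 7. All values by library below keep this order. Among the adipocyte markers, only Lep reached 0, in TV 4. Ucp1, the uncoupling protein that defines brown fat, stood at 0.201, 1.06, 53.4 and 0.0359 FPKM in NTV, 0.477, 0.205, 0 and 0.132 in TV and 58.3, 0.2104, 3.97 and 0 in TL. Thus NTV 5, TL 1 and TL 5 exceeded 2 FPKM. TL 5, at 3.97, was nearer to NTV 3 (1.06) than to NTV 5 or TL 1, and the limit of 2 FPKM falls between TL 5 and NTV 3. The summed brown adipocyte markers, given below, did not single out these libraries. Schwann cell markers summed to 28.9 to 107 FPKM in NTV, 37.3 to 72.2 in TV and 29.3 to 75.8 in TL, and macrophage markers to 22.7 to 57.7, 27.5 to 58.9 and 22.7 to 41.4. Mitochondrial reads made up 11.6% to 13.5% of each NTV library and 5.08% to 7.699% of each TV library. They made up 10.1% of TL 1 and 13.9% of TL 5 but 6.04% of TL 4 and 6.55% of TL 7.

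**Figure D1:**
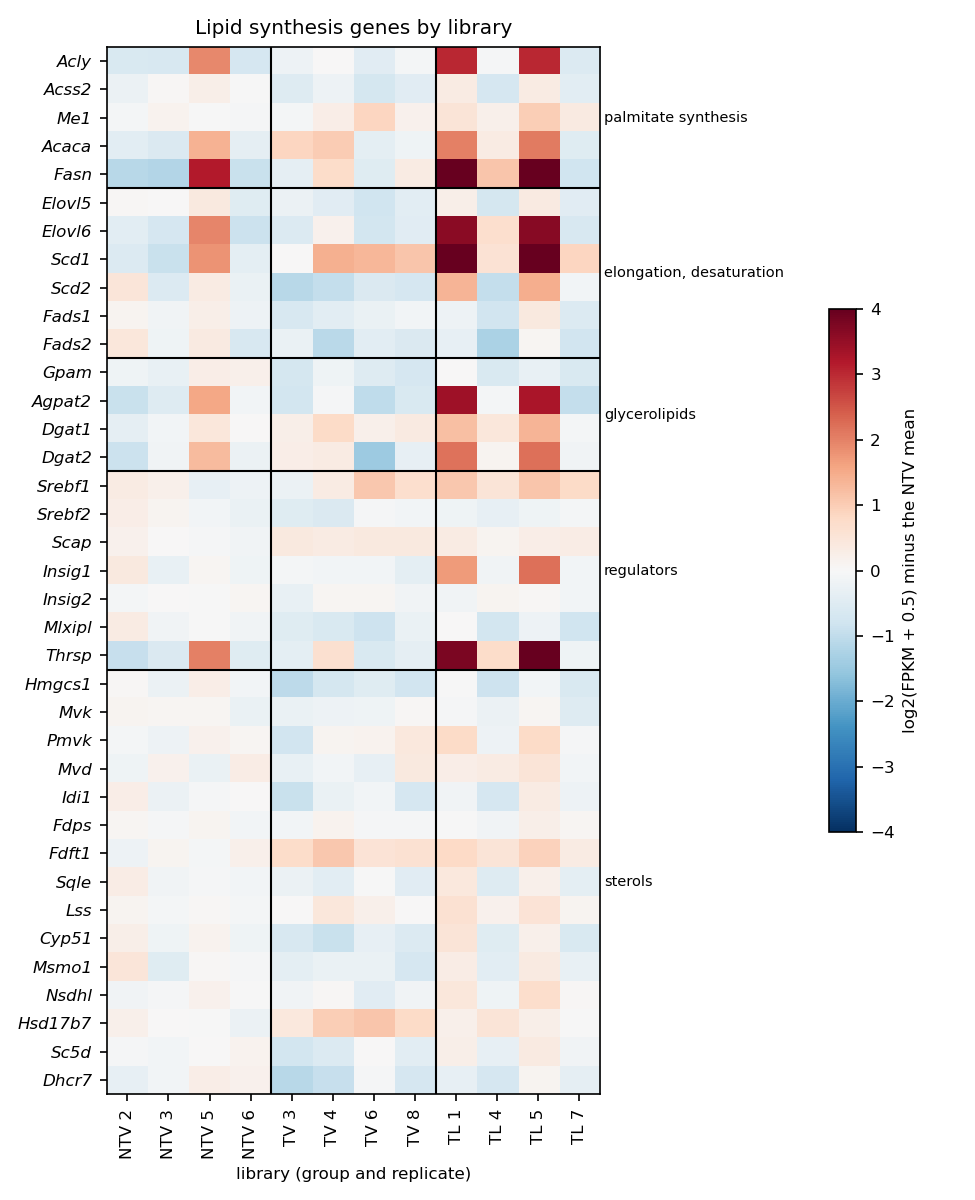
Level of each of the 37 genes (rows, in the order of the pathway) in each of the 12 libraries (columns), as log2(FPKM + 0.5) minus the mean of the 4 NTV libraries, with the colour scale ending at 4 in either direction. Acly, Fasn, Elovl6, Agpat2 and Thrsp are darkest in NTV 5, TL 1 and TL 5, and most sterol genes are pale throughout.

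The first comparison, TV against NTV, asks what the tumour changed in vehicle-treated mice. Fdft1, Hsd17b7 and Scap were higher in TV, Hmgcs1 was lower, and the other 32 tested members did not pass the test (limma, Benjamini-Hochberg adjustment over all 12754 genes tested, called at an adjusted p under 0.05). Thus 3 of 36 members (8.33%) were called higher, where 13.8% of all tested genes were, and 1 of 36 (2.78%) lower, where 11.5% of all tested genes were. Neither share exceeded that of the genes at large. The median log2 difference of the members was -0.23, with 26 of 36 estimates below 0, beside a median of 0.015 over all tested genes. Without NTV 5, TL 1 and TL 5, described above as high in Ucp1, the members' median was -0.12 with 21 of 36 below 0, and with the mean adipocyte marker level as a covariate it was -0.51 with 29 of 36 below 0. The split of calls depended on the scaling between libraries: quantile normalization gave 3 higher and 3 lower members, and an equal total without mitochondrial genes and the 50 most abundant genes gave 2 and 4. The calls over all genes moved the same way, to 11.9% higher and 12.8% lower with quantile normalization and to 9.22% and 15.8% with that equal total. In muscle as a bulk sample, fewer cells of a type and less RNA per cell cannot be told apart.

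Fdft1 encodes squalene synthase, the first enzyme committed to sterols. It stood at 16.1, 20.04, 17.7 and 21.6 FPKM in NTV, at 31.7, 40.1, 27.4 and 28.9 in TV and at 32.8, 27, 35.9 and 23.7 in TL. Every tumour-bearing library lay above every NTV library. The TV mean of 32.03 ± 5.68 FPKM (SD, n = 4) exceeded the NTV mean of 18.9 ± 2.43 by a log2 difference of 0.74 ± 0.16 (SE, adjusted p = 0.00625). The gene (14:63145150-63179578, minus strand, mm10 as in the deposited table) overlaps Ctsb, a lysosomal protease gene on the other strand, and the strand used in counting is not stated. Ctsb stood at 66.3 ± 6.79 FPKM in NTV and 55.2 ± 7.395 in TV, a log2 difference of -0.27 ± 0.15 (SE, adjusted p = 0.205) that was not called. Whether reads from Ctsb entered the level of Fdft1 was not tested. Of the 50-base stretches of Fdft1, 10.9% also occur in Gm6781, which reached at most 0.192 FPKM.

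Hsd17b7 encodes a reductase that acts on a keto group late in cholesterol synthesis and also on estrone. Its level was 1.996, 1.69, 1.65 and 1.35 FPKM in NTV, 2.36, 3.79, 4.17 and 3.13 in TV and 1.97, 2.597, 2.04 and 1.63 in TL. The TV libraries lay above all NTV libraries, while TL overlapped both groups. With means of 3.37 ± 0.792 in TV and 1.67 ± 0.266 in NTV (SD, n = 4), the log2 difference was 0.82 ± 0.16 (SE, adjusted p = 0.00533). Scap, the SREBP escort protein, changed by less but with little spread: 3.25, 2.83, 2.69 and 2.503 FPKM in NTV, 3.82, 3.62, 3.85 and 3.83 in TV and 3.61, 3.08, 3.49 and 3.57 in TL. No TV library overlapped NTV, and the log2 difference was 0.37 ± 0.09 (SE, adjusted p = 0.00998). The call on Scap ended when NTV 5, TL 1 and TL 5 were removed (0.35, adjusted p = 0.0502) and with an equal total without mitochondrial genes and the 50 most abundant genes (0.28, adjusted p = 0.0513).

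Hmgcs1 makes HMG-CoA at the entry to the mevalonate pathway and is a textbook SREBP-2 target, and its promoter window above holds the sterol element core. It stood at 8.59, 6.92, 10.1 and 7.66 FPKM in NTV, 3.73, 4.82, 5.72 and 4.61 in TV and 8.09, 4.43, 7.65 and 5.25 in TL. All TV values were below all NTV values, and TL spread over both. The means were 4.72 ± 0.8202 in TV and 8.31 ± 1.37 in NTV (SD, n = 4), a log2 difference of -0.76 ± 0.19 (SE, adjusted p = 0.0139). Fdft1, Hsd17b7, Hmgcs1 and Scap kept these calls when each of the 12 libraries was left out in turn.

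**Figure D2:**
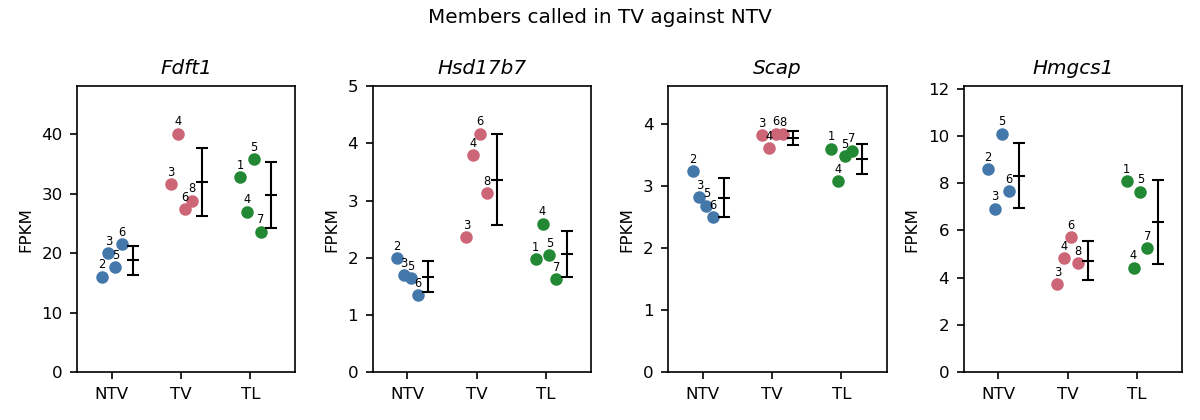
FPKM of the 4 genes called in TV against NTV, 1 point per library with its replicate number, and the mean ± SD of each group (n = 4) to the right. For Fdft1, Hsd17b7 and Scap every TV point is above every NTV point, and for Hmgcs1 every TV point is below.

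Of the 14 tested sterol genes, 2 were higher, 1 was lower and 11 were not called in TV against NTV, with a median log2 difference of -0.23 and 11 of 14 estimates below 0. Dhcr7, the last reductase before cholesterol, stood at 1.37 ± 0.351 FPKM in NTV and 0.698 ± 0.411 in TV (SD, n = 4), a log2 difference of -0.68 ± 0.24 (SE, adjusted p = 0.0546). Cyp51, the lanosterol demethylase, stood at 2.09 ± 0.392 and 1.203 ± 0.271, a log2 difference of -0.61 ± 0.23 (SE, adjusted p = 0.0737). Cyp51 overlaps Akap9 on the other strand, which itself was higher in TV (0.53 ± 0.13, adjusted p = 0.0134). Sqle, the squalene epoxidase and a rate-controlling step, was among the members with the lowest FPKM. It stood at 1.18, 0.731, 0.8303 and 0.763 FPKM in NTV, 0.666, 0.515, 0.851 and 0.494 in TV and 1.34, 0.455, 1.06 and 0.544 in TL, groups that overlapped throughout, and the log2 difference of -0.28 ± 0.21 (SE) did not pass the test. The remaining 8 sterol genes (Mvk, Pmvk, Mvd, Idi1, Lss, Msmo1, Nsdhl and Sc5d) had log2 differences from -0.48 for Idi1, the isopentenyl isomerase, to 0.17 for Lss, the lanosterol synthase. Of the 50-base stretches of Idi1, 21.3% are shared with Gm13502, which was at most 0.465 FPKM.

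Among the regulators, Scap alone of 7 was called in TV against NTV. Srebf1 stood at 14.9, 13.4, 9.19 and 10.02 FPKM in NTV, 9.83, 14.8, 25.3 and 18.7 in TV and 25.3, 16.96, 25.9 and 20.1 in TL. TV covered the whole range from within NTV to above it, and the log2 difference of 0.46 ± 0.26 (SE, adjusted p = 0.205) was not called. Srebf2 stood at 5.04, 4.42, 3.798 and 3.34 in NTV, 2.82, 2.62, 3.98 and 3.78 in TV and 3.59, 3.14, 3.59 and 3.86 in TL, with a log2 difference of -0.30 ± 0.14 (SE, adjusted p = 0.148). Its groups overlapped. Mlxipl, which encodes ChREBP, was at 30.6, 22.1, 24.01 and 22.2 in NTV, 17.4, 15.9, 13.7 and 20.3 in TV and 24.9, 14.7, 21.4 and 13.9 in TL. Every TV library was below every NTV library, yet the log2 difference of -0.54 ± 0.19 (SE, adjusted p = 0.0553) narrowly missed the threshold. It was called in 3 of the 12 fits that left out 1 library (without TV 8, TL 1 or TL 7, the lowest adjusted p being 0.0378 without TL 1). Over 14 other settings, described below, Mlxipl was called lower in 7, with adjusted p from 0.0199 to 0.108. Insig1, which retains SCAP and is itself an SREBP target, stood at 5.97, 3.55, 4.69 and 3.88 in NTV, 4.18, 4.09, 4.06 and 3.29 in TV and 15.6, 4.03, 22.4 and 4.08 in TL. NTV and TV overlapped (log2 difference -0.17 ± 0.45 (SE)). Insig2 varied least of the regulators, from 14.7 to 19.6 FPKM over all 12 libraries.

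None of the 15 genes of palmitate synthesis, elongation, desaturation and glycerolipid assembly was called in TV against NTV. Fasn, fatty acid synthase (11:120805846-120824547, minus strand), stood at 2.85, 2.66, 63.6 and 3.39 FPKM in NTV, 5.11, 11.5, 4.66 and 8.53 in TV and 137, 14.9, 121 and 3.66 in TL. NTV 5 exceeded every TV library, while the other 3 NTV libraries were below every TV library. The log2 difference was 0.06 ± 1.17 (SE, adjusted p = 0.976) with NTV 5 and 1.12 (adjusted p = 0.462) when it was left out. Scd1, the stearoyl-CoA desaturase that makes oleate, stood at 7.93, 6.19, 42.5 and 8.88 in NTV, 11.9, 32.7, 30.4 and 25.8 in TV and 318, 17.8, 679.7 and 21.8 in TL. Its log2 difference was 0.97 ± 1.06 (SE, adjusted p = 0.537). Without NTV 5, TL 1 and TL 5, Scd1 was called higher in TV (1.57 ± 0.32 (SE), adjusted p = 0.0134). Those libraries are also the highest in Scd1 within their groups, so their removal itself narrowed the spread. Without NTV 5 alone the difference was 1.57 ± 1.1 (SE, adjusted p = 0.333) and was not called. With the mean adipocyte marker level as a covariate the difference was -0.05. Acaca, acetyl-CoA carboxylase, stood at 1.66, 1.43, 7.05 and 1.75 in NTV, 4.73, 5.31, 1.69 and 2.09 in TV and 11.2, 3.15, 11.8 and 1.58 in TL, with TV inside the range of NTV. Of its 50-base stretches, 52.6% also occur in the pseudogene Gm5182, so its level is uncertain. Dgat2, which adds the last acyl chain of triglyceride, stood at 7.996, 13.4, 36.2 and 12.5 in NTV, 18.1, 19.02, 5.17 and 11.8 in TV and 69.1, 15.97, 71.1 and 13.6 in TL, again with overlapping groups.

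Gpam, the mitochondrial acyltransferase that starts glycerolipid assembly, came closest to a call among these 15 genes (44.6 ± 8.56 FPKM in NTV and 30.9 ± 5.53 in TV, log2 difference -0.51 ± 0.18 (SE, adjusted p = 0.0534)). Scd2, the desaturase known from brain and other tissues, had TV libraries at 3.25 to 4.898 FPKM, all below the NTV range of 5.01 to 10.7 (log2 difference -0.83 ± 0.46 (SE, adjusted p = 0.206)). Acss2, the cytosolic acetyl-CoA synthetase, stood at 5.89 ± 0.839 in NTV and 4.11 ± 0.654 in TV, a log2 difference of -0.47 ± 0.22 (SE, adjusted p = 0.1295). Elovl5, which elongates polyunsaturated chains, and the desaturases Fads1 and Fads2 had log2 differences of -0.48, -0.37 and -0.59. Me1, malic enzyme and a source of NADPH, stood at 45.7 to 53.3 FPKM in NTV and 45.2 to 87.3 in TV. Of its 50-base stretches, 26.5% are shared with other genes, mostly Gm7049. Dgat1 had a log2 difference of 0.39 ± 0.29 (SE), and Acly, Elovl6 and Agpat2 had -0.19 ± 0.82 (SE), -0.38 ± 0.91 (SE) and -0.60 ± 0.90 (SE). In the regulator group Thrsp, a lipogenic protein also called Spot 14, had -0.17 ± 0.92 (SE). In Acly, Elovl6, Agpat2 and Thrsp, NTV 5 was 3.35 to 10.35 times the next highest NTV library. When NTV 5 was left out, the estimates turned to 0.45 ± 0.78 (SE) for Acly, 0.27 ± 0.89 for Elovl6 and 0.50 ± 0.89 for Thrsp, and that for Agpat2 shrank to -0.09 ± 0.93. On the other strand, Agpat2 overlaps Egfl7, which averaged 12.3 FPKM over the 12 libraries, and Acss2 overlaps Gss, which averaged 2.97. Whether counting separated the strands is not stated.

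The second comparison, TL against TV, asks what selpercatinib changed in tumour-bearing mice. No member was called higher, where 0.235% of all tested genes were, and none lower, where 0.282% were (limma). Voom on the recovered reads called none either. At an unadjusted p under 0.05 there were 10 of 36 members (27.8%), where 16.1% of all tested genes passed that level. In the other comparisons the members fell below the genes at large. Their share was 27.8% against 39.1% in TV against NTV, and 25% against 27.5% in TL against NTV. The median log2 difference of the members was 0.36, with 32 of 36 estimates above 0, beside -0.003 over all tested genes. By role the medians were 0.67 for palmitate synthesis (5 of 5 estimates above 0), 0.80 for elongation and desaturation (6 of 6), 0.86 for glycerolipid assembly (4 of 4), 0.12 for the regulators (6 of 7) and 0.34 for sterol synthesis (11 of 14). Without NTV 5, TL 1 and TL 5, which leaves TL with 2 libraries, the median of all members was 0.003, with 18 of 36 estimates above 0. The medians by role were then -0.08 for palmitate synthesis (1 of 5 above 0), -0.18 for elongation and desaturation (2 of 6), -0.0017 for glycerolipid assembly (2 of 4), 0.07 for the regulators (5 of 7) and 0.04 for sterol synthesis (8 of 14). In 31 of 36 members TL 1 and TL 5 were the 2 highest TL libraries, so their removal by itself lowered those estimates. TL against TV shares the TV libraries with the first comparison, so the values of both are given side by side. No test of one against the other was made.

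The lowest adjusted p belonged to Hsd17b7, at 2.06 ± 0.401 FPKM in TL and 3.37 ± 0.792 in TV (SD, n = 4). Its log2 difference was -0.58 ± 0.16 (SE, adjusted p = 0.135) for TL against TV and 0.82 for TV against NTV. TL 4 lay above the lowest TV library, so the groups overlapped. For Fdft1, the values were -0.10 ± 0.16 (SE) for TL against TV and 0.74 for TV against NTV. For Scap they were -0.12 ± 0.09 (SE) and 0.37, and all TL libraries lay just below all TV libraries. For Hmgcs1 they were 0.37 ± 0.19 (SE) and -0.76, with TL 1 and TL 5 above every TV library. The largest estimates were those of Thrsp, Elovl6, Fasn, Scd1 and Agpat2 (2.28 ± 0.92 (SE), 2.20 ± 0.91 (SE), 2.10 ± 1.17 (SE), 2.01 ± 1.06 (SE) and 2.01 ± 0.90 (SE)), which had the widest errors. Without the 3 libraries with Ucp1 above 2 FPKM, the Fasn estimate was 0.09 ± 0.49 (SE) and that of Scd1 -0.25 ± 0.36. Scd2 was called higher (1 member) when TL 4 was left out. Insig1 had a log2 difference of 1.09 ± 0.45 (SE, adjusted p = 0.266), and of its TL libraries only TL 1 and TL 5 lay above the TV range.

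**Figure D3:**
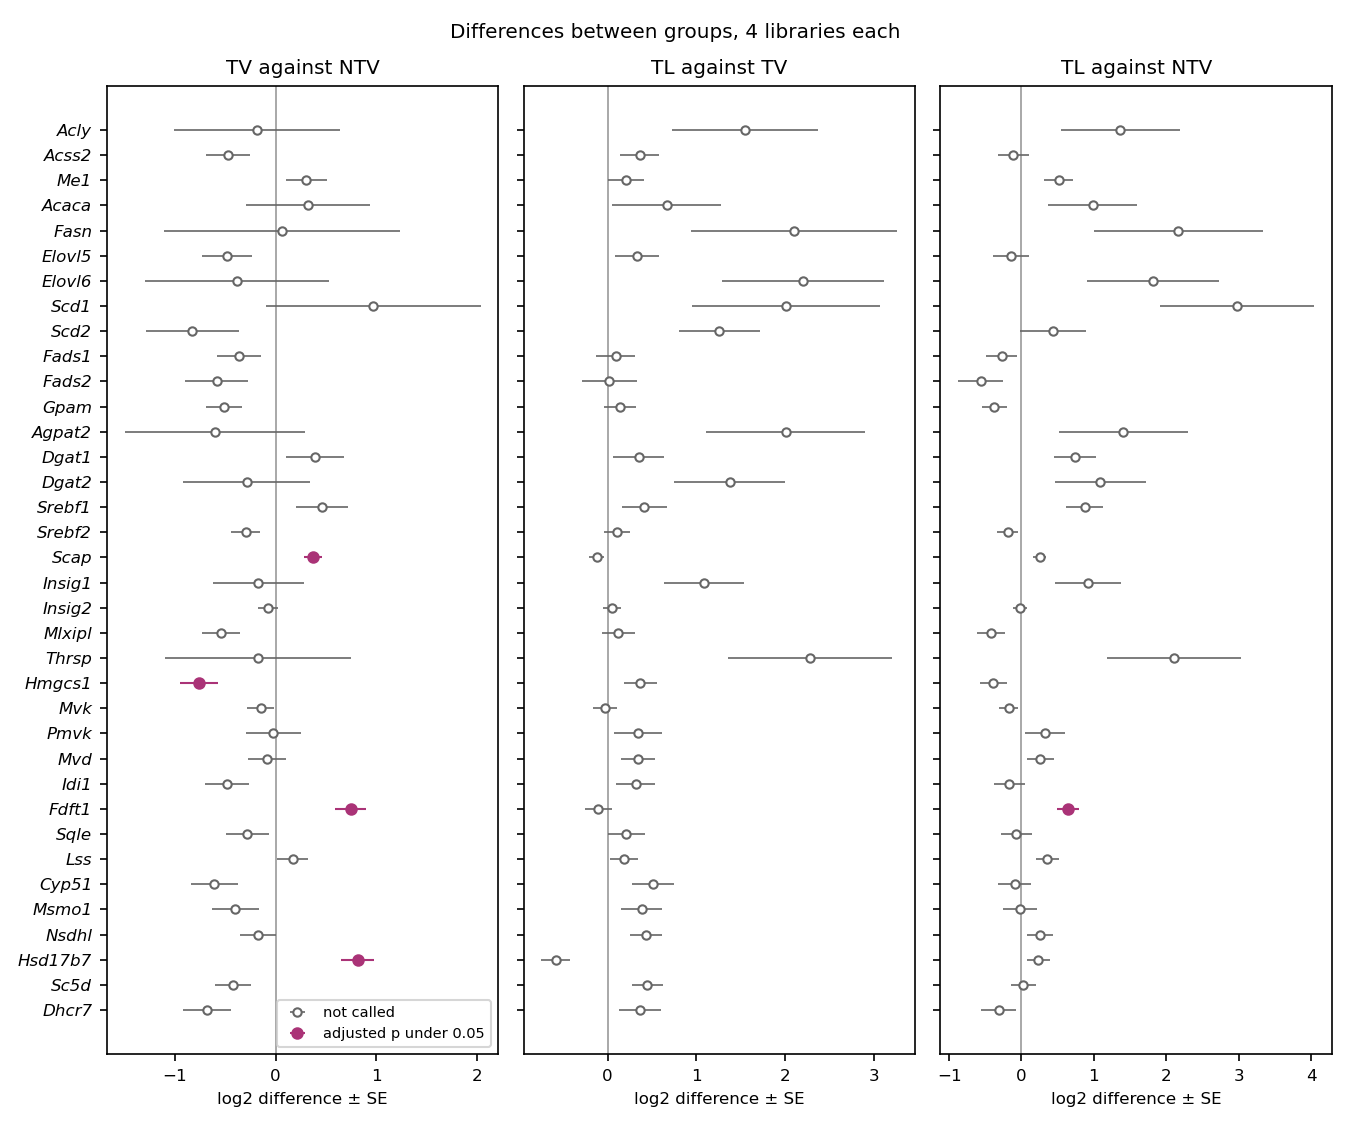
Log2 difference ± SE of the 36 tested members in the 3 comparisons (4 libraries per group, limma on log2(FPKM + 0.5)), with filled points for an adjusted p under 0.05. The filled points are Scap, Hmgcs1, Fdft1 and Hsd17b7 in TV against NTV and Fdft1 in TL against NTV, and the bars of Fasn, Scd1, Elovl6, Agpat2 and Thrsp are the longest.

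The third comparison, TL against NTV, sets treated tumour-bearing mice beside tumour-free ones, and it shares its libraries with the other comparisons. Fdft1 was the only member called (1 of 36 higher, 2.78%, where 4.19% of all tested genes were called higher), and no member was called lower, where 4.62% were. Fdft1 averaged 29.8 ± 5.51 FPKM in TL (SD, n = 4), a log2 difference of 0.64 ± 0.16 (SE, adjusted p = 0.0279), and all TL libraries lay above all NTV libraries. The call ended when NTV 2, NTV 5, TL 1, TL 4 or TL 5 was left out (adjusted p = 0.0729, 0.0718, 0.0645, 0.0528 and 0.0552), and when NTV 5, TL 1 and TL 5 were all removed (0.40, adjusted p = 0.231). Srebf1 also lay above the NTV range in every TL library, at 22.1 ± 4.27 FPKM against 11.9 ± 2.71, a log2 difference of 0.87 ± 0.26 (SE, adjusted p = 0.0552). It was called when TV 3 or TV 6 was left out (adjusted p = 0.0263 and 0.0328). Srebf1 overlaps Rai1 on the other strand, which stood at 4.22 ± 0.3495 FPKM in NTV and 3.497 ± 0.363 in TL. Me1 stood at 55.2 to 94.7 FPKM in TL, above its NTV range (log2 difference 0.51 ± 0.20 (SE, adjusted p = 0.121)). The estimate for Scd1 was the largest, at 2.98 ± 1.06 (SE, adjusted p = 0.0971), and every TL library was above the NTV libraries other than NTV 5. With an equal total for every library the median of all genes shifted to 0.136, and Fdft1, Me1 and Srebf1 were then called higher (3 of 36 members, 8.33%), where 3.58% of all genes were.

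Several lipogenic members had libraries far apart within a group. In 8 of 36 members (22.2%), NTV 5 exceeded 2 times every other NTV library, and TL 1 and TL 5 both exceeded 2 times TL 4 and TL 7. The same held for 0.463% of all tested genes. These 8 were Acaca, Acly, Agpat2, Dgat2, Elovl6, Fasn, Scd1 and Thrsp, and none of the 14 tested sterol genes was among them. This pattern was noticed after the values were seen and is given as a description. Thrsp stood at 4.48, 5.83, 37.7 and 6.203 FPKM in NTV, 6.77, 14.3, 5.73 and 6.91 in TV and 128, 15.4, 162 and 7.88 in TL. Acly, which makes cytosolic acetyl-CoA from citrate, followed with 4.58, 4.48, 28.5 and 4.37 in NTV, 6.203, 7.24, 5.15 and 6.76 in TV and 62.02, 7, 62.2 and 4.83 in TL. Elovl6, which elongates palmitate to stearate, ranged from 0.192 FPKM in NTV 6 to 14.9 in TL 5. Over the 12 libraries the highest value was 110 times the lowest for Scd1, 77.5 times for Elovl6 and 51.6 times for Fasn, against 1.34 times for Insig2 and 1.54 times for Scap. TL 1 and TL 5 were the 2 highest TL libraries in 31 of 36 members (86.1%), against 21.5% of all tested genes. That includes 12 of 14 sterol genes, by smaller amounts: TL 1 exceeded the higher of TL 4 and TL 7 by 2.46 times for Sqle and 1.54 times for Hmgcs1.

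**Figure D4:**
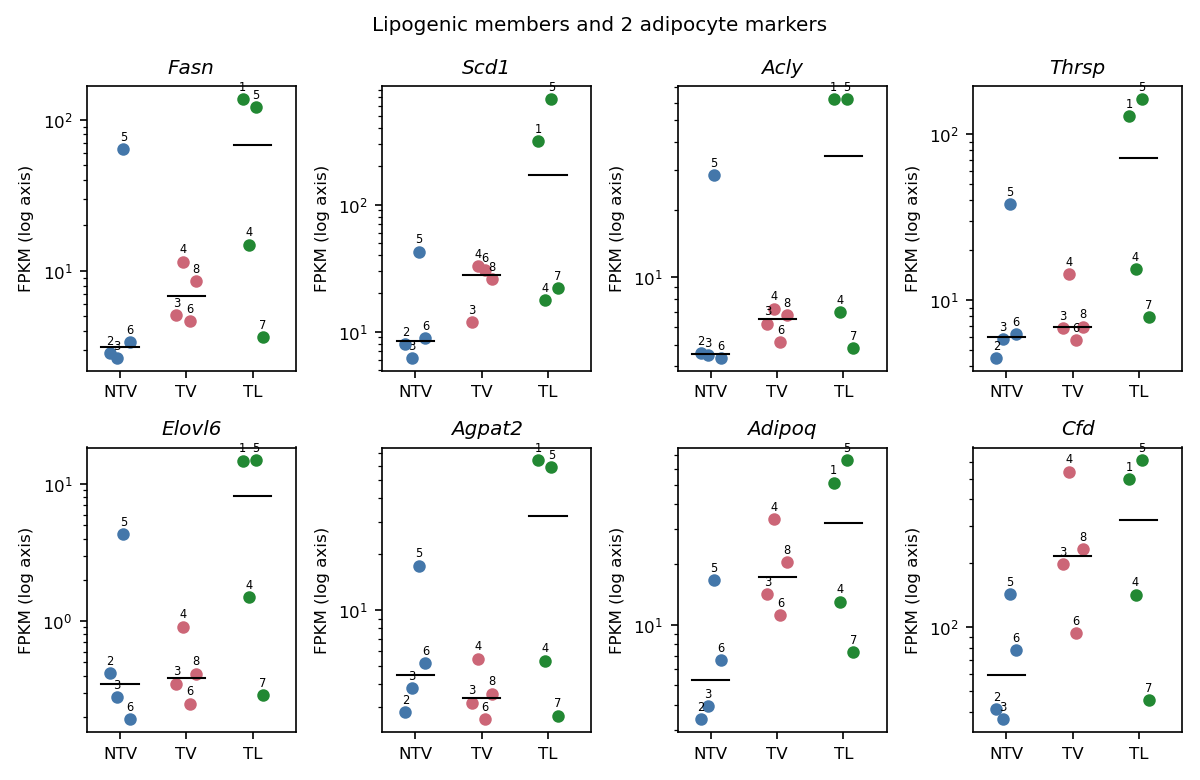
FPKM (log axes) of 6 lipogenic members and the adipocyte markers Adipoq and Cfd, 1 point per library with its replicate number and a line at the group median. NTV 5, TL 1 and TL 5 stand high in each of the 6 members, with Fasn at 63.6, 137 and 121.1 FPKM in them.

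NTV 5 was also the highest NTV library in 14 of the 18 adipocyte markers found, against 23.9% of all tested genes. TL 1 and TL 5 were the 2 highest TL libraries in 16 of 18, against 21.5% of all tested genes. The exceptions were Plin4 and Aqp7 in both groups, and Lpl and Car3 in NTV. All 18 adipocyte markers summed to 2208 FPKM in TL 1 and 2392 in TL 5, against 1266 in TL 4 and 1101 in TL 7, but to 939 in NTV 5, below NTV 6 (1192). In TV against NTV, 1 of 17 tested adipocyte markers was called higher (Plin4, 1.42 ± 0.34, adjusted p = 0.0122) and 1 lower (Aqp7, -0.82 ± 0.23, adjusted p = 0.0233). The 9 brown adipocyte markers summed to 666 to 813 FPKM in NTV, 511 to 1063 in TV and 456 to 837 in TL. Ucp1 was at 0 in TV 6 and TL 7, and Zic1 at 0 in NTV 6. The summed level followed Ucp1 only in part. TL 5 (837) and TL 1 (649) were highest of TL, but NTV 5 (666) was lowest of NTV, and TV 8 (1063) was highest of all. The Ucp1 values given above are far below each sum, so most of each sum came from other genes of the list. Their cell source was not tested. Per unit of Adipoq, Fasn stood at 0.8445, 0.6765, 3.81 and 0.511 in NTV, at 0.359, 0.343, 0.418 and 0.417 in TV and at 2.68, 1.14, 1.83 and 0.501 in TL. The 4 TV ratios were therefore close together and below all ratios in NTV and TL. Thrsp per Adipoq gave the same order of groups, at 0.338 to 0.514 in TV, 0.934 to 2.26 in NTV and 1.08 to 2.51 in TL. Scd1 per Adipoq did not, since TV 6 (2.72) exceeded every NTV library. NTV 2, NTV 3, NTV 6 and TL 7 had less Adipoq and less Fasn than every TV library, so their higher Fasn ratios came with a low denominator. Whether the ratios differ at equal Adipoq was not tested. TV 4 had more Adipoq (33.6 FPKM) than NTV 5 (16.7) and less Fasn (11.5 against 63.6). Cfd, a secreted protease of fat cells, stood at 41.2, 36.7, 143 and 77.8 FPKM in NTV, 198, 538, 93.6 and 232 in TV and 495, 142, 608 and 45.4 in TL. Cidec, a lipid droplet protein, stood at 1.8, 2.54, 12.8 and 1.87 in NTV, 15.7, 33.8, 5.57 and 18.2 in TV and 72.1, 10.2, 59.8 and 5.46 in TL. The part of fat cells in the members' levels was not tested. With the mean adipocyte marker level as a covariate, 12 of 36 members were called lower in TV against NTV, where 12.1% of all tested genes were. Among them were Fasn (-1.17), Thrsp, Acly and Elovl6. The covariate averages the 17 tested markers, Car3, Plin4 and Aqp7 included. Their median log2 difference in TV against NTV was 0.39. The covariate thus differs between the groups, and its fit cannot separate marker level from group.

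**Figure D5:**
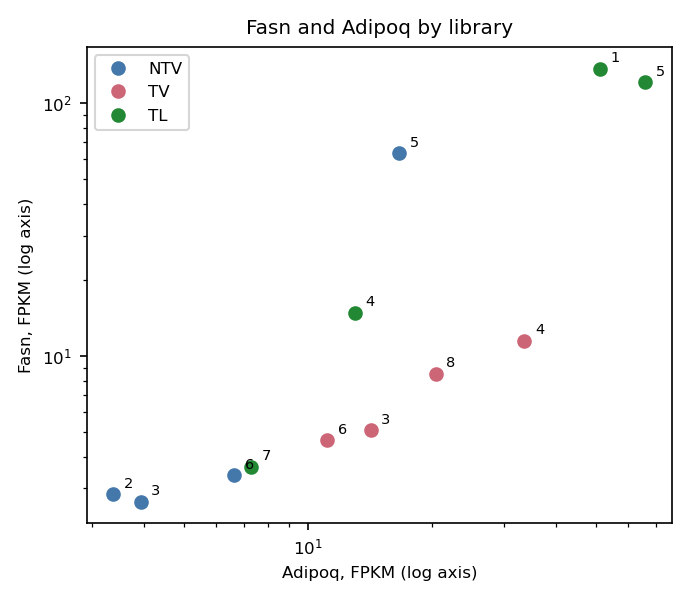
Fasn against Adipoq, both in FPKM on log axes, 1 point per library with its replicate number. The 4 TV points lie lowest for their Adipoq level (0.343 to 0.418 Fasn per Adipoq), and NTV 5, TL 1 and TL 5 lie at the top.

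Other genes of the same pathways were drawn from 4 lists of 84 genes, of which 69 were tested. In TV against NTV, 8 were higher (11.6%) and 9 lower (13.0%), beside 13.8% and 11.5% of all genes. In TL against TV limma called none, and 14 of 69 (20.3%) had an unadjusted p under 0.05, where 16.1% of all tested genes did. Back in TV against NTV, the largest rise among those called was that of Abca1, the cholesterol exporter and a textbook target of the liver X receptors, at 2.44 ± 0.2503 FPKM in NTV, 7.58 ± 0.935 in TV and 6.19 ± 2.06 in TL (log2 difference of TV against NTV 1.46 ± 0.17 (SE, adjusted p = 0.000898)). The liver X receptor genes Nr1h2 and Nr1h3 were higher by 0.39 ± 0.08 and 0.34 ± 0.11 on the log2 scale (adjusted p = 0.00599 and 0.0383), and were chosen for mention after their values were seen. Cyp27a1, the sterol 27-hydroxylase, rose from 26.97 ± 3.93 FPKM to 51.8 ± 5.997 (0.93 ± 0.13 (SE, adjusted p = 0.00134)). Hacd1, a muscle dehydratase of chain elongation, fell from 25.5 ± 4.69 FPKM to 10.1 ± 5.61 (-1.46 ± 0.32 (SE, adjusted p = 0.00811)). Fads6, a member of the desaturase family, had a log2 difference of -1.22 ± 0.23 (SE, adjusted p = 0.00394). Ppargc1b, a coactivator of SREBP and of mitochondrial genes, had -0.98 ± 0.19 (SE, adjusted p = 0.00447), and Acsl1, which activates long-chain fatty acids, had -0.87 ± 0.28 (SE, adjusted p = 0.0383). Sirt1, a deacetylase, and Acsl6 were higher, by 0.69 ± 0.17 (SE, adjusted p = 0.0129) and 0.61 ± 0.19 (SE, adjusted p = 0.0364).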

How the data were processed

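Muscle RNA of 12 mice, 4 each of NTV, TV and TL, was sequenced from poly(A) RNA with random hexamer priming, per the labels' protocols. In the submitters' processing notes, the build mm10 and the tools DESeq2, featureCounts 1.5.0-p3 and HISAT2 2.05 are listed, without roles. The strand setting is not given in the sources used here. The authors deposited 1 table of FPKM values and gene lengths. Multiplied by gene length, 100% of values were whole numbers of reads (within 0.1 read), and the scale between libraries equalled median-of-ratios size factors, which assume that most genes do not differ. No 2 libraries of the same group agreed within sampling noise (lowest chi-square 20.2 per degree of freedom).

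The test was limma 3.58.1 (R 4.3.3, trended eBayes) on log2(FPKM + 0.5), fitted to all 12 libraries together with a mean for each group. The p-values were adjusted by Benjamini-Hochberg across the 12754 genes that averaged 0.5 FPKM or more. A difference on this scale understates the change of low genes. The members, the companion and marker lists and the rules were chosen with earlier results of these data known. By rule, values in every library are given for 11 members (Srebf1, Srebf2, Mlxipl, Insig1, Fasn, Scd1, Acaca, Dgat2, Hmgcs1, Sqle, Fdft1) and for members called, and up to 8 called companion genes are named. Acly, Thrsp, Adipoq, Ucp1, Cfd and Cidec were added after their values were seen. On simulated data for TV against NTV with 12754 genes, the test found 57 of 80 genes changed 2-fold and 110 of 120 changed 4-fold, and it called 11 of 12554 unchanged genes. That simulation gave each gene independent noise with the same spread in every group. The real spread was unequal, with chi-square per degree of freedom of 20.2 to 35.3 between NTV libraries and 54.7 to 143.6 between TV libraries. The simulated rates may therefore not hold for these libraries. Alternatives were other pseudocounts, filters, scalings and limma options, voom on recovered reads, the replicate number as a block, an adipocyte covariate, and libraries left out. Tables and plots were made in Python 3.11.15 (pandas 2.3.3, numpy 2.4.6, matplotlib 3.10.9).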

Additional observations from a re-analysis of the deposited data

Results flagged for a closer look

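In 12 of 108 groups of 4 libraries (36 members in 3 groups), 1 library lay far from the other 3 by Dixon's criterion, which chance alone meets in about 1 of 20 groups. NTV 5 was the high library in 7 of the 12: Fasn 63.59 FPKM (the others 2.66 to 3.39), Acly 28.54 (4.37 to 4.58), Thrsp 37.66 (4.48 to 6.20), Acaca 7.05 (1.43 to 1.75), Elovl6 4.319 (0.192 to 0.417), Scd1 42.54 (6.19 to 8.88) and Agpat2 17.39 (2.83 to 5.19). These 7 are not independent, since they come from 1 library. The other 5 were Me1 in NTV 3 at 53.28 FPKM, Mvk in NTV 6 at 3.384, Thrsp in TV 4 at 14.34, Scap in TV 4 at 3.616 and Insig1 in TV 8 at 3.285, the last 2 and Mvk being low values. TL 1 and TL 5 do not meet the criterion because they stand apart together.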

How the results depend on the processing

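The members called higher in TV against NTV (3) numbered 2 or 3 in every setting but the block; without the libraries with Ucp1 above 2 FPKM they were Fdft1, Hsd17b7 and Scd1, with Scap lost. In addition, Fdft1, Hsd17b7, Hmgcs1 and Scap were called in all 12 fits with 1 library left out. The count of lower members (1) was 3 with quantile normalization, 4 with totals equalized after dropping mitochondrial genes and the top 50, 5 with library weights, 5 with only the 2 groups fitted, 4 with voom, 3 without the libraries with Ucp1 above 2 FPKM and 12 with the adipocyte covariate, and ranged from 1 to 4 with 1 library left out. It was 2 without NTV 3, TV 4, TV 8, TL 5 or TL 7, 3 without TV 6 and 4 without TL 1. In TL against TV the higher members (0) were 1 with the covariate (Thrsp) and 0 to 1 with 1 library left out. In TL against NTV the higher members (1) were 0 with no filter, with the covariate and without the Ucp1 libraries, 3 with an equal total, 3 with library weights, 2 with only the 2 groups and 2 with voom, and 0 to 2 with 1 library left out (0 without NTV 2, NTV 5, TL 1, TL 4 or TL 5, 2 without TV 3, TV 6 or TL 7). The lower members (0) were 1 with the covariate (Gpam). The cause was not tested.

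With the replicate number as a replicate block, which leaves 2 residual degrees of freedom, limma called 0 of all genes, so 0 members in each comparison (adjusted p = 0.204 for Fdft1 in TV against NTV). Libraries with the same number deviated together by r of 0.014 to 0.133, inside the range of -0.227 to 0.238 for different numbers. So few pairs cannot settle whether the numbers pair animals, and no label says that they do. Under the block these log2 differences changed sign: Insig1 0.54 and Sqle 0.07008 in TV against NTV, Acaca -0.40 in TL against TV and Sqle 0.10 in TL against NTV.

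Signs were followed singly for 13 members, those named by rule or called, and the other changes among these were in differences that did not pass the test as reported. In TV against NTV they were Fasn at -0.0204 (quantile), -0.0329 (equal total without mitochondrial or abundant genes) and -1.17 (covariate), Scd1 at -0.0534 and Acaca at -0.32 (covariate), and Dgat2 at 0.13 (without the Ucp1 libraries). Without the Ucp1 libraries, TL against TV gave Mlxipl -0.21, Scd1 -0.25, Acaca -0.40 and Sqle -0.17, and TL against NTV gave Insig1 -0.0929. TL against NTV also gave Acaca -0.0654 (covariate) and Sqle 0.0014 (equal total). With 1 library left out, Fasn ranged from -0.33 to 1.12 and Dgat2 from -0.57 to 0.13 in TV against NTV, Mlxipl from -0.0263 to 0.25 and Fdft1 from -0.20 to 0.0085 in TL against TV, and Sqle from -0.24 to 0.0774 in TL against NTV. Of the other 23 tested members, 8 changed sign in at least 1 alternative in TV against NTV, 12 in TL against TV and 11 in TL against NTV, and 0 of these differences had been called. Fdps, at 1 to 11 reads, is too shallow to show a difference at this depth.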
